A study of Homo sapiens with 12 samples.

Results

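ATP-binding cassette (ABC) proteins couple the hydrolysis of ATP to the movement of a substrate across a membrane or, in a few families, to work on the ribosome. This account covers 39 human ABC genes of subfamilies A to G, taken by symbol from 4 comparison tables deposited by the authors: ABC, a letter from A to G and a number. The 39 are part of 23375 genes with a row in any of the 4 tables, and 3 further symbols of that form were not analysed here. By known function 9 encode exporters of drugs and conjugates, 12 carry lipids, 3 sit in mitochondria, 4 act in translation and lack membrane spans, 5 form a gene cluster at 17q24, and 6 have other or little described roles.

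The cells were SUM159, an established human triple-negative breast cancer line, grown in medium with fetal bovine serum, hydrocortisone and insulin. The 4 groups of 3 libraries each were shE4F1 cells with gemcitabine, shE4F1 cells untreated, shCTRL cells with gemcitabine and shCTRL cells untreated. The shE4F1 hairpin lowers E4F1, which encodes a zinc finger regulator of transcription, the shCTRL hairpin is a scramble control, and gemcitabine, a deoxycytidine analogue that stops DNA synthesis, was given at 140 nM for 24 h. The labels give neither the hairpin sequences nor whether the cells were a pool or 1 clone. They also do not state separate cultures for the libraries of 1 group, so every p-value rests on a spread between libraries that may be technical.

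Changes are log2 fold changes ± SE, shE4F1 over shCTRL or gemcitabine over untreated, from the authors' deposited tables of DESeq2 results. A gene rose or fell where the Benjamini-Hochberg adjusted p was under 0.05. In the authors' deposited tables it covers only genes given an adjusted p, 19472 of 21567 for shE4F1 over shCTRL untreated. The mean normalized count is the average over the 6 libraries of a comparison. E4F1 itself was at 0.532 times its shCTRL level under gemcitabine and at 0.503 times in untreated cells in the authors' deposited tables. The mesenchymal markers VIM, CD44, AXL and ZEB1 all had mean normalized counts of 3407 or more and ESR1 stayed between 4.95 and 13.1, while the luminal genes ERBB2 and KRT8 had means of 2496 or more in every table. With shE4F1 under gemcitabine and untreated, AXL fell by 1.85 ± 0.10 and 2.08 ± 0.14, and CD44 rose by 0.68 ± 0.12 and 0.79 ± 0.15. VIM was at -0.01 ± 0.10 and -0.40 ± 0.14, and ZEB1 at 0.54 ± 0.10 and 0.06 ± 0.18, in the same authors' deposited tables. The blood marker PTPRC had means of 42.6 to 144 and differed by -3.00 ± 0.27 under gemcitabine and -2.21 ± 0.40 untreated, and the endothelial marker PECAM1 had means of 115 to 197 and differed by 1.17 ± 0.20 and 1.40 ± 0.29, in the authors' deposited tables. The part of such markers in the results was not tested. Depth per library is unknown here.

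Most ABC exporters are built of paired membrane and ATPase domains, either in a single long chain or as shorter chains that pair. ABCB1, ABCC1 and ABCG2 are the pumps best known for removing anticancer drugs from tumour cells, and the other ABCC exporters mostly carry glutathione, glucuronide and nucleotide conjugates. ABCA and ABCG proteins move sterols and phospholipids to acceptors outside the cell or between its membranes, and the ABCD proteins of peroxisomes bring in fatty acyl-CoA. ABCB6, ABCB8 and ABCB10 belong to mitochondria and are tied to heme and iron-sulfur cluster supply. E4F1 was first described as a cellular factor bound to the adenovirus E4 promoter at sites that hold the letters TGACGT.

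The 250 bases before the RefSeq start of 5 genes are shown (GRCh38.p14, 5′ to 3′ on the gene's strand) because their transcripts mark the ends of the range: ABCC2 rose most and ABCC9 fell most in shE4F1 cells, ABCA13 changed direction with gemcitabine, ABCB10 is a mitochondrial gene that fell in both conditions, and ABCE1 was not called in any table. Capitals mark TGACGT and TATAAA on either strand.
ABCC2, chr10:99782390-99782639, plus strand: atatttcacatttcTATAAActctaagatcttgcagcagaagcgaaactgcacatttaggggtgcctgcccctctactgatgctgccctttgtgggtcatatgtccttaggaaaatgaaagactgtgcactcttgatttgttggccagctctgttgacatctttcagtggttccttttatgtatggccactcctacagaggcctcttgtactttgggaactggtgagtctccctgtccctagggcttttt
ABCC9, chr12:21941427-21941676, minus strand: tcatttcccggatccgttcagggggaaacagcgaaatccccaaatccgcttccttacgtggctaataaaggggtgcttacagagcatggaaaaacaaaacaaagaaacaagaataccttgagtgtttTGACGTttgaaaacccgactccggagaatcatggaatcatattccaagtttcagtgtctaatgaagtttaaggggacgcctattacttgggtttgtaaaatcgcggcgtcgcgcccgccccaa
ABCA13, chr7:48171208-48171457, plus strand: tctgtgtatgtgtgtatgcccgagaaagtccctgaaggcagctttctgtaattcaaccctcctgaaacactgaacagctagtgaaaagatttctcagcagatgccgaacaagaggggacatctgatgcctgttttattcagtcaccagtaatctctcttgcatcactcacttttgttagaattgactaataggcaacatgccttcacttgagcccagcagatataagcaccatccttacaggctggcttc
ABCB10, chr1:229558708-229558957, minus strand: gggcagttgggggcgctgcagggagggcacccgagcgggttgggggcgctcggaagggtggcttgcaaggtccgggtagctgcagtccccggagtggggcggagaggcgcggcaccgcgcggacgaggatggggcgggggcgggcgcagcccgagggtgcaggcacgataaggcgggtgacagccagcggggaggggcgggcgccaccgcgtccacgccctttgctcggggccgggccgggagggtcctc
ABCE1, chr4:145098061-145098310, plus strand: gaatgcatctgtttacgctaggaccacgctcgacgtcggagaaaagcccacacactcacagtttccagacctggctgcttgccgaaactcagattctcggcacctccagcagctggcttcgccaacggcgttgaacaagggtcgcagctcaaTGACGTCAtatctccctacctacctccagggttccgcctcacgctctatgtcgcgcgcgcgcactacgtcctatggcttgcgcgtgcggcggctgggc
TGACGT stands 1 time in the ABCC9 window and 0 times in those of ABCC2, ABCA13 and ABCB10. The ABCE1 window holds the palindrome TGACGTCA, which reads TGACGT on both strands and was counted 2 times. Of the 5 windows that of ABCC2 has the only TATAAA, near its upstream end. The share of G and C was 77.2% in ABCB10 and 60% in ABCE1, against 46% in ABCC9, 45.6% in ABCC2 and 44.8% in ABCA13, with a median of 58% over all 35116 promoters. CG pairs numbered 29, 24, 15, 1 and 2 in ABCB10, ABCE1, ABCC9, ABCC2 and ABCA13. Of 47 starts of 31 of the 39 genes found in the RefSeq table, 4 held TGACGT, against 7.10% of all promoters. CCAAT was in 10 of the 47 starts and in 32.0% of all promoters, GGGCGG in 24 of the 47 and in 42.6%, and TATAAA in 5 of the 47 and in 10.7%. These matches describe letters in a window and name no binding site.

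Across the whole family, genes moved in both directions when E4F1 was lowered. Under gemcitabine 11 of 39 tested genes rose and 8 fell (20.3% and 20.8% of all genes tested, 41.0% in either direction). In untreated cells 11 of 36 rose and 9 fell (17.5% and 19.3% of all genes, 36.7% in either direction). The medians over the family were -0.08 under gemcitabine and 0.02 untreated, with medians over all genes within 0.01 of 0. In both conditions, 16 of the 36 genes present each time were called, 9 of them higher in both, 6 lower in both and 1, ABCA13, with opposite signs. Of all 20926 genes with a row in both, 25.9% were called in both tables, 12.6% higher in both, 12.9% lower in both and 0.464% with opposite signs. The log2 fold changes of the 36 in these tables, which share no library, had a Pearson correlation of 0.822 (Spearman 0.723), against a Pearson correlation of 0.723 over 20926 genes. The points share library preparation and scaling within each table. Another 13 of the 39 were not called in any table, against 47.0% of all genes with a row, and 8 of the 39 had means under 15 in every table.

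**Figure D1:**
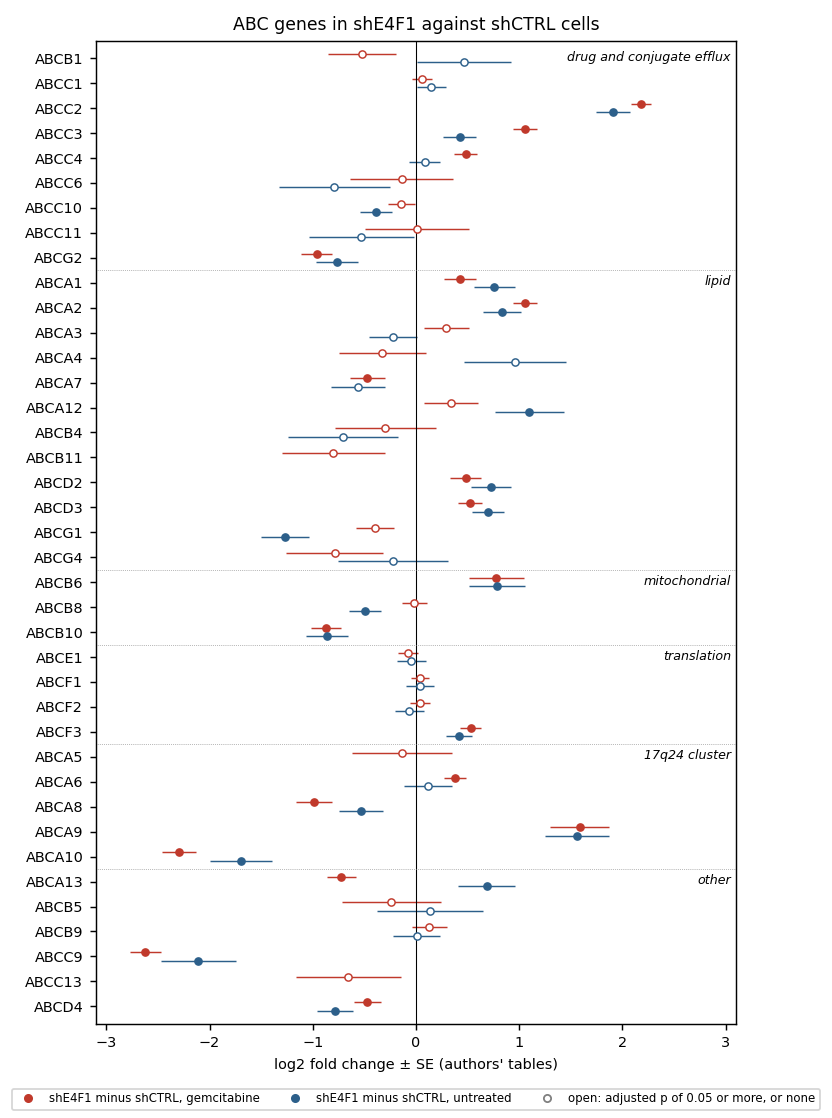
Log2 fold change of each ABC gene in shE4F1 over shCTRL cells under gemcitabine (red, upper point) and untreated (blue, lower point), with bars of ± 1 SE, grouped by known function. Filled points had an adjusted p under 0.05. ABCC2 sits farthest to the right at 2.18 and ABCC9 farthest to the left at -2.62 under gemcitabine, and ABCA13 has its red and blue points on opposite sides of 0.

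Levels in the 4 groups were solved from the authors' mean normalized counts, which average pairs of groups. The tables were normalized separately and were put on 1 scale by 6198 abundant genes, so a group mean has no spread of its own. Per kilobase of exon, the most abundant members in untreated shCTRL cells were the translation factors ABCE1 (1579 normalized counts per kb), ABCF2 (1490) and ABCF1 (1176), then the conjugate exporter ABCC3 (1061) and ABCF3 (488). Next came ABCB10 (337), ABCC1 (334), ABCD3 (279) and ABCC2 (269). In untreated shE4F1 cells ABCC2 stood at 1054 per kb and ABCC3 at 1438 per kb, and ABCB10 at 180 per kb. ABCB1, the P-glycoprotein gene, was near the low end with 2.9 per kb in untreated shE4F1 cells and 1.9 per kb in untreated shCTRL cells.

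**Figure D2:**
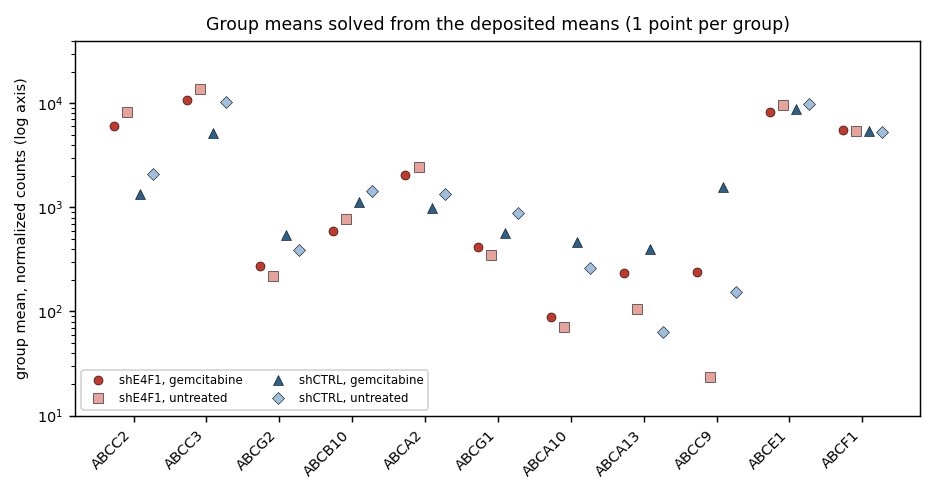
Group means of 11 ABC genes in normalized counts (log axis), solved from the authors' deposited means. Each gene has 1 point for shE4F1 with gemcitabine, shE4F1 untreated, shCTRL with gemcitabine and shCTRL untreated, from left to right, without error since no library values were used. The ABCC2 and ABCA2 points of shE4F1 cells lie above both shCTRL points, the ABCB10 points lie below them, and the 4 points of ABCF1 are between 5317 and 5490.

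Among the drug and conjugate exporters ABCC2 and ABCC3 rose in both conditions and ABCG2 fell, while ABCC1 and ABCB1 were not called. ABCC2 (MRP2; ENSG00000023839, chr10:99782640-99852594, plus strand), which exports glutathione and glucuronide conjugates and several anticancer drugs, rose 4.53-fold under gemcitabine and 3.75-fold in untreated cells in the authors' deposited tables. In the same authors' deposited tables its log2 changes were 2.18 ± 0.10 (adjusted p = 3.36e-101) and 1.91 ± 0.17 (adjusted p = 3.22e-28). The solved group means of ABCC2 were 6021 and 8261 normalized counts in shE4F1 cells with gemcitabine and untreated, against 1346 and 2110 in shCTRL cells. Both shE4F1 means of ABCC2 lay above both shCTRL means.

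ABCC3 (MRP3; ENSG00000108846, chr17:50634777-50692252, plus strand), an exporter of glucuronides and bile salts, rose 2.08-fold under gemcitabine and 1.34-fold untreated in the authors' deposited tables. On the log2 scale of the authors' deposited tables this was 1.06 ± 0.12 (adjusted p = 3.70e-18) and 0.42 ± 0.16 (adjusted p = 0.0293). The knockdown effect was larger under gemcitabine by 0.63 ± 0.20 (adjusted p = 0.0348, derived from both tables with a normal test). That call was lost when each table was centred on its median (adjusted p = 0.0861). The group means of ABCC3 were 10675 and 13824 in shE4F1 cells with gemcitabine and untreated, against 5182 and 10197 in shCTRL cells, so the shCTRL cells with gemcitabine stood lowest. ABCC4 (MRP4), which carries nucleotide analogues and cyclic nucleotides, rose by 0.48 ± 0.11 under gemcitabine (adjusted p = 3.99e-05) and had 0.09 ± 0.15 untreated in the authors' deposited tables. Its change was also taken from the other 2 tables that involve these groups, as both changes together minus gemcitabine in shCTRL cells. There ABCC4 was at 0.45 ± 0.21 and not called (adjusted p = 0.143, normal test). Such tables share a group of libraries, here shCTRL untreated, so the SE from summed variances is too large. A call lost this way, here and below, cannot decide whether a change held.

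ABCG2 (BCRP; ENSG00000118777, chr4:88090264-88231322, minus strand), a paired-chain transporter of many drugs and of urate, fell in both conditions. In the authors' deposited tables it stood at 0.513 times the shCTRL level under gemcitabine (-0.96 ± 0.15, adjusted p = 1.13e-09) and at 0.589 times untreated (-0.76 ± 0.20, adjusted p = 0.000905). In group means ABCG2 stood at 272 and 222 in shE4F1 cells with gemcitabine and untreated, against 544 and 386 in shCTRL cells. ABCC1 (MRP1; ENSG00000103222, chr16:15949577-16143074, plus strand), the founding multidrug resistance protein of the C subfamily, was at 0.06 ± 0.10 under gemcitabine and 0.15 ± 0.14 untreated in the authors' deposited tables. Its 95% intervals, computed from the SE in the authors' deposited tables, ran over -0.129 to 0.245 and -0.128 to 0.427. ABCB1 (ENSG00000085563, chr7:87503633-87713323, minus strand), with mean normalized counts of 31.4 and 14.0, had -0.52 ± 0.33 and 0.47 ± 0.45 in the authors' deposited tables, and the 95% interval of its untreated change reached 1.36. Solved group means of ABCB1 gave log2 changes of -0.61 under gemcitabine and 0.59 untreated, farther from 0. Whether the deposited fold changes of low-count genes were moderated, that is drawn towards 0, was not tested.

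In this group of 9 exporters 3 rose and 1 fell under gemcitabine, and 2 rose and 2 fell in untreated cells, with medians of 0.01 and 0.09. Called were 44.4% in each condition, close to the 41.0% and 36.7% of all genes. The other call was ABCC10 (MRP7), which fell by 0.39 ± 0.16 untreated (adjusted p = 0.0364) in the authors' deposited table and was at -0.14 ± 0.13 under gemcitabine. ABCC6 and ABCC11 had means under 9 in every table and were not called. ABCC6 also has near-identical pseudogene copies, so its counts are uncertain.

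Genes that sense foreign compounds or conjugate them were read beside the pumps. Of 12 tested under gemcitabine 4 rose and 2 fell, and of 11 tested in untreated cells 2 rose and 1 fell. Of all genes tested 41.0% and 36.7% were called in these comparisons. NFE2L2, which encodes the NRF2 factor of the oxidative stress response, fell by 0.36 ± 0.12 and 0.45 ± 0.15, and MVP, the major vault protein, rose by 0.38 ± 0.11 and 0.65 ± 0.15, in the authors' deposited tables under gemcitabine and untreated. The NRF2 targets NQO1 and GCLM rose under gemcitabine, by 0.36 ± 0.12 and 0.37 ± 0.10, and were at 0.32 ± 0.16 and -0.01 ± 0.14 untreated, not called, in the authors' deposited tables. Among the same genes GCLC was at 0.13 ± 0.11 and -0.32 ± 0.14 under gemcitabine and untreated. GSTP1 was at -0.11 ± 0.12 and 0.14 ± 0.15, and neither gene was called in these 2 authors' deposited tables. SLC47A1, a drug and cation exporter outside the ABC family with means of 32.3 and 18.1, rose by 1.63 ± 0.34 and 1.137 ± 0.42, and the receptor gene AHR fell by 0.59 ± 0.09 under gemcitabine and had -0.15 ± 0.18 untreated, in the authors' deposited tables. The peptide transporters TAP1 and TAP2, ABC proteins under other symbols, both fell in both knockdown tables. TAP1 was at -0.92 ± 0.11 and -0.58 ± 0.14 in the authors' deposited tables under gemcitabine and untreated.

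Among the lipid transporters 4 of 12 rose and 1 fell under gemcitabine, 41.7% called against 41.0% of all genes, and 5 of 11 rose and 1 fell in untreated cells, 54.5% called against 36.7%. Their medians were -0.00053 and 0.70. Taken from the other 2 tables, with a larger SE, 1 of the 12 rose under gemcitabine and the calls of ABCA1, ABCD2, ABCD3 and ABCA7 were lost (adjusted p = 0.418, 0.308, 0.151 and 0.419). The share of all genes called in this way was not computed. ABCA2 (ENSG00000107331, chr9:137007227-137028922, minus strand), a lysosomal and endosomal lipid transporter, rose 2.07-fold under gemcitabine (1.05 ± 0.12, adjusted p = 6.40e-18) and 1.78-fold untreated (0.83 ± 0.18, adjusted p = 3.69e-05) in the authors' deposited tables. ABCA2 had group means of 2050 and 2446 in shE4F1 cells with gemcitabine and untreated, against 997 and 1341 in shCTRL cells.

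In untreated cells the sterol exporters ABCA1 and ABCG1 went opposite ways. ABCA1 (ENSG00000165029, chr9:104781002-104928237, minus strand), which loads cholesterol onto lipid-poor apolipoprotein A-I, rose by 0.43 ± 0.15 under gemcitabine (adjusted p = 0.0148) and by 0.76 ± 0.20 untreated (adjusted p = 0.000752) in the authors' deposited tables. ABCG1 (ENSG00000160179, chr21:42199689-42297244, plus strand), which passes sterol to high-density lipoprotein, had -0.40 ± 0.18 under gemcitabine (adjusted p = 0.0668) and fell to 0.414 times the shCTRL level untreated (-1.27 ± 0.23, adjusted p = 4.79e-07) in the authors' deposited tables. In group means ABCG1 stood at 418 and 352 in shE4F1 cells with gemcitabine and untreated, against 566 and 891 in shCTRL cells. Its knockdown effects differed by 0.88 ± 0.30 (adjusted p = 0.0534, derived), which passed at 0.0379 when only genes with a mean of at least 50 were adjusted.

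Both genes are targets of the sterol-sensing liver X receptors, and 11 partners of that pathway were read beside them: 5 rose and 2 fell under gemcitabine, and 3 rose and 5 fell untreated. Of all genes tested 41.0% and 36.7% were called in these comparisons. APOE, a sterol acceptor, rose by 1.56 ± 0.18 and 1.54 ± 0.25 in the authors' deposited tables under gemcitabine and untreated. RXRA, the partner receptor, rose by 0.93 ± 0.14 and 0.63 ± 0.16 in the authors' deposited tables. Of the liver X receptors, NR1H2 was at -0.73 ± 0.14 and -0.98 ± 0.20, lower in both conditions, and NR1H3 rose by 0.50 ± 0.12 under gemcitabine and had 0.30 ± 0.17 untreated, in the authors' deposited tables. PLTP, the phospholipid transfer protein, was at -1.80 ± 0.36 and -1.49 ± 0.42 in the same authors' deposited tables, with means of 29.7 and 21.3. The pathway's members moved in both directions.

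The peroxisomal acyl-CoA importers ABCD2 and ABCD3 rose in both conditions. From the other 2 tables they were at 0.45 ± 0.28 and 0.50 ± 0.24 under gemcitabine, not called. Those SEs are too large because the tables share libraries. ABCD3 (PMP70; ENSG00000117528, chr1:94418455-94518666, plus strand), the carrier of branched and dicarboxylic acyl chains, rose by 0.53 ± 0.11 under gemcitabine (adjusted p = 2.44e-05) and by 0.70 ± 0.16 untreated (adjusted p = 6.97e-05) in the authors' deposited tables. ABCD2, a carrier of very long-chain acyl-CoA, rose by 0.48 ± 0.15 and 0.72 ± 0.19 in the same authors' deposited tables. Of 14 peroxisome biogenesis and beta oxidation genes 5 rose and 2 fell under gemcitabine, where 41.0% of all genes were called. Untreated, 3 rose and 0 fell by DESeq2, with 2 lower at an unadjusted p under 0.05. There 36.7% of all genes were called by adjusted p, and their share at an unadjusted p was not computed.

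Of the low-count lipid genes ABCA12 was called in untreated cells. ABCA12 (ENSG00000144452, chr2:214931542-215138428, minus strand), the keratinocyte lipid transporter, had mean normalized counts of 67.3 and 37.4, with 0.34 ± 0.26 under gemcitabine (adjusted p = 0.325) and a rise of 1.10 ± 0.34 untreated (adjusted p = 0.00448) in the authors' deposited tables. The difference between these effects of ABCA12, -0.76 ± 0.42, did not pass (adjusted p = 0.370, derived). ABCA4 (ENSG00000198691, chr1:93992835-94121132, minus strand), the retinoid flippase of photoreceptors, had means of 20.1 and 11.7 and was not called, at -0.33 ± 0.42 and 0.96 ± 0.49 in the authors' deposited tables. ABCA7 fell by 0.47 ± 0.17 under gemcitabine and was at -0.56 ± 0.26 untreated, not called (adjusted p = 0.0803), in the authors' deposited tables. ABCA3 and the low-count genes ABCB4 and ABCG4 were not called. The low-count ABCB11 was not called under gemcitabine and was not tested untreated.

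Of the mitochondrial transporters ABCB10 fell and ABCB6 rose in both conditions. ABCB10 (ENSG00000135776, chr1:229516582-229558695, minus strand), which supports heme synthesis from the inner membrane, fell to 0.546 times the shCTRL level under gemcitabine (-0.87 ± 0.15, adjusted p = 2.25e-08) and to 0.551 times untreated (-0.86 ± 0.20, adjusted p = 0.000157) in the authors' deposited tables. The group means of ABCB10 were 594 and 767 in shE4F1 cells with gemcitabine and untreated, against 1126 and 1436 in shCTRL cells. The knockdown effect under gemcitabine minus that untreated was -0.01 ± 0.25 for ABCB10 (derived) and did not pass.

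ABCB8 (ENSG00000197150, chr7:151028422-151047782, plus strand), an inner membrane protein linked to iron export and a potassium channel, was at -0.02 ± 0.12 under gemcitabine (adjusted p = 0.935) and fell by 0.49 ± 0.15 untreated (adjusted p = 0.00591) in the authors' deposited tables. The difference, 0.47 ± 0.20, did not pass (adjusted p = 0.158, derived). ABCB6 (ENSG00000115657, chr2:219209766-219219017, minus strand), a porphyrin transporter described in the outer mitochondrial membrane and elsewhere, rose by 0.78 ± 0.27 (adjusted p = 0.01002) and 0.79 ± 0.27 (adjusted p = 0.0122) under gemcitabine and untreated in the authors' deposited tables. From the other 2 tables ABCB6 was at 0.74 ± 0.40 under gemcitabine and not called (adjusted p = 0.213, normal test). That SE is too large through shared libraries. ABCB6 had mean normalized counts of only 54.6 and 67.0, and 2864 of its 5234 exon bases overlap AC068946.2 on the same strand. Reads in the shared bases can belong to either gene. ABCB10 has pseudogene copies elsewhere in the genome. The group median was -0.02 under gemcitabine and -0.49 untreated, and 2 and 3 of its 3 genes were called, against 41.0% and 36.7% of all genes.

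Heme and iron-sulfur genes outside the family moved both ways: of 17 tested, 10 rose and 5 fell under gemcitabine, and 3 rose and 6 fell untreated. Of all genes tested 41.0% and 36.7% were called in these comparisons. CPOX, a late enzyme of heme synthesis, rose by 1.24 ± 0.11 and 1.05 ± 0.18, while PPOX, the next enzyme, was at -0.81 ± 0.14 and -1.41 ± 0.19, in the authors' deposited tables under gemcitabine and untreated. SLC25A38, the mitochondrial glycine carrier of heme synthesis, fell by 0.80 ± 0.12 and 1.22 ± 0.16 in the authors' deposited tables. The scaffold gene ISCU was at -0.07 ± 0.11 under gemcitabine and fell by 0.48 ± 0.16 untreated in the authors' deposited tables.

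Side by side, under gemcitabine the drug exporters ran over -0.96 to 2.18, the lipid transporters over -0.80 to 1.05 and the mitochondrial transporters over -0.87 to 0.78 in log2 fold change in the authors' deposited tables. The numbers that rose and fell were 3 and 1 of 9, 4 and 1 of 12, and 1 and 1 of 3. Of all genes tested 20.3% rose and 20.8% fell. The medians lay close to the all-gene median near 0 under gemcitabine, at 0.01, -0.00053 and -0.02. In untreated cells they were 0.09, 0.70 and -0.49, the lipid group above and the mitochondrial group below the all-gene median. The mitochondrial median was the value of ABCB8 alone, with ABCB10 at -0.86 and ABCB6 at 0.79. The ABCA genes at 17q24 were kept apart from the lipid group. The 4 of them tested untreated ran over -1.70 to 1.56, with a median of -0.21. The differences between the groups were not tested.

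The translation members ABCE1, ABCF1 and ABCF2 were abundant and not called in any table, while ABCF3 rose with the knockdown. ABCE1 (ENSG00000164163, chr4:145097932-145129179, plus strand), which splits ribosomes after termination, was at -0.08 ± 0.10 under gemcitabine and -0.04 ± 0.14 untreated in the authors' deposited tables, with 95% intervals of -0.269 to 0.113 and -0.318 to 0.23. The untreated value of ABCE1 turned to 0.01 when the table was centred on its median. ABCF1 (ENSG00000204574, chr6:30571376-30597179, plus strand), an initiation factor partner, was at 0.04 ± 0.09 and 0.04 ± 0.14 in the authors' deposited tables. Its intervals were -0.136 to 0.209 and -0.231 to 0.309. ABCF2 was not called either, and 1914 of its exon bases overlap AC021097.2 on the same strand. ABCF3 rose by 0.53 ± 0.10 under gemcitabine (adjusted p = 6.83e-07) and by 0.42 ± 0.13 untreated (adjusted p = 0.00382) in the authors' deposited tables. From the other 2 tables it was at 0.50 ± 0.19 under gemcitabine and not called (adjusted p = 0.0523, normal test). That SE is too large through shared libraries. Of 10 translation partners 3 rose and 3 fell under gemcitabine, and 1 rose and 3 fell untreated, against 41.0% and 36.7% of all genes called. Among them EIF2S2, a subunit of initiation factor eIF2, was at -0.58 ± 0.12 and -1.01 ± 0.18 in the authors' deposited tables. EIF2AK4 of the same list rose by 0.79 ± 0.09 under gemcitabine and 0.59 ± 0.14 untreated in those tables.

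The ABCA genes at 17q24 lie head to tail on the minus strand of chromosome 17 in the order of transcription ABCA5, ABCA10, ABCA6, ABCA9 and ABCA8, over 460 kb. They are little described members of the ABCA subfamily. Neighbours moved in opposite directions. ABCA10 (ENSG00000154263, chr17:69147214-69244846) fell to 0.203 times the shCTRL level under gemcitabine (-2.30 ± 0.16, adjusted p = 3.03e-42) and to 0.309 times untreated (-1.70 ± 0.30, adjusted p = 1.28e-07) in the authors' deposited tables. Its group means were 87.7 and 71.0 in shE4F1 cells with gemcitabine and untreated, against 467 and 260 in shCTRL cells.

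ABCA9 (ENSG00000154258, chr17:68974488-69061064), 2 genes further along, rose 3.00-fold under gemcitabine (1.59 ± 0.29, adjusted p = 2.74e-07) and 2.95-fold untreated (1.56 ± 0.31, adjusted p = 5.82e-06) in the authors' deposited tables. The group means of ABCA9 were 72.4 and 74.9 in shE4F1 cells with gemcitabine and untreated, against 21.9 and 22.3 in shCTRL cells. Between them ABCA6 rose by 0.38 ± 0.11 under gemcitabine and had 0.11 ± 0.23 untreated in the authors' deposited tables. From the other 2 tables ABCA6 was at 0.33 ± 0.33 under gemcitabine and not called (adjusted p = 0.616, normal test). That SE is too large through shared libraries. ABCA8, the last gene, was at -0.99 ± 0.17 and -0.53 ± 0.21 in the same authors' deposited tables, lower in both. ABCA5 (ENSG00000154265, chr17:69244311-69327244), the first gene, with a mean of 7.92, was at -0.14 ± 0.49 under gemcitabine in the authors' deposited table and was not tested untreated. ABCA5 and ABCA10 share 318 exon bases on the same strand, and ABCA9 overlaps the antisense gene ABCA9-AS1 over 534 exon bases, so reads in the shared ABCA5 and ABCA10 bases can belong to either gene, and those in the ABCA9 overlap can if counting ignored the strand, a setting not given in the sources used here.

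**Figure D3:**
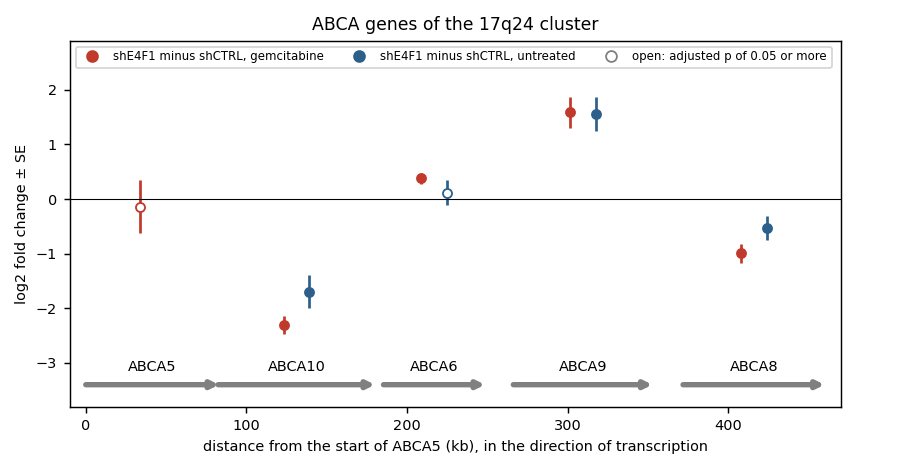
Log2 fold change ± SE, shE4F1 over shCTRL, under gemcitabine (red) and untreated (blue) for the 5 ABCA genes of the 17q24 cluster, placed at the middle of each gene by distance in kb from the start of ABCA5 in the direction of transcription. Filled points had an adjusted p under 0.05. ABCA10 lies at -2.30 and -1.70 and ABCA9 at 1.59 and 1.56, on either side of ABCA6 at 0.38 and 0.11.

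The remaining members include the largest fall of the family. ABCC9 (ENSG00000069431, chr12:21797401-21942529, minus strand) encodes SUR2, the sulfonylurea receptor that regulates ATP-sensitive potassium channels and is not known as an exporter. It fell to 0.162 times the shCTRL level under gemcitabine (-2.62 ± 0.15, adjusted p = 1.44e-65) and to 0.232 times untreated (-2.11 ± 0.36, adjusted p = 7.60e-08) in the authors' deposited tables. Its group means were 237 and 23.5 in shE4F1 cells with gemcitabine and untreated, against 1562 and 153 in shCTRL cells. These solved means of ABCC9 give 0.152 times under gemcitabine and 0.154 times untreated, so that the untreated ratio lies below the 0.232 of the authors' deposited table. ABCD4, a lysosomal partner in vitamin B12 export, fell by 0.47 ± 0.13 and 0.79 ± 0.18 in the authors' deposited tables, with 624 exon bases shared with AC005519.1. From the other 2 tables ABCD4 was at -0.49 ± 0.24 under gemcitabine and not called (adjusted p = 0.172, normal test). That SE is too large through shared libraries. ABCB9, a lysosomal peptide transporter, and the low-count ABCB5 were not called. The pseudogene-like ABCC13 was not called under gemcitabine and was not tested untreated.

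ABCA13 (ENSG00000179869, chr7:48171458-48647496, plus strand), the longest ABC protein, changed sign between conditions. It fell by 0.72 ± 0.14 under gemcitabine (adjusted p = 2.57e-06) and rose by 0.68 ± 0.28 untreated (adjusted p = 0.0379) in the authors' deposited tables. The difference of the effects, -1.41 ± 0.31, passed the test (adjusted p = 0.000546, derived). Taken from the other 2 tables the change under gemcitabine was -0.70 ± 0.32 and no longer called (adjusted p = 0.115, normal test). That SE is too large through shared libraries. Its group means were 237 and 106 in shE4F1 cells with gemcitabine and untreated, against 402 and 63.7 in shCTRL cells, so the shCTRL group spanned the wider range.

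Of 36 members tested for such a difference ABCA13 and ABCC3 were called, 1 lower and 1 higher (2.63% and 2.81% of all genes, 5.43% in either direction). At an unadjusted p under 0.05 there were 2 lower and 4 higher. The share of all genes at that unadjusted threshold was not computed, so these 2 counts have no background to be read against.

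Gemcitabine alone, in shCTRL cells, changed 13 of 38 tested members: 8 rose and 5 fell in the authors' deposited table (14.5% and 13.5% of all genes, 28.0% in either direction). Of the conjugate exporters ABCC2, ABCC3 and ABCC4 fell, and ABCC1, ABCC6, ABCC10 and ABCC11 were not called. In the authors' deposited table ABCC2 was at -0.66 ± 0.17 (adjusted p = 0.000545), ABCC3 at -0.96 ± 0.16 (adjusted p = 1.63e-07) and ABCC4 at -0.58 ± 0.14 (adjusted p = 0.000487). The drug pumps ABCG2 and ABCB1 rose, by 0.48 ± 0.17 (adjusted p = 0.0238) and 1.23 ± 0.36 (adjusted p = 0.00368) in the authors' deposited table, ABCB1 at a mean of only 25.5. For ABCC1 the change was -0.22 ± 0.14 in the authors' deposited table. This comparison shares the shCTRL gemcitabine libraries with 1 knockdown comparison and the shCTRL untreated libraries with the other.

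The largest rises belonged to the other members. ABCA13 rose 5.65-fold (2.50 ± 0.21, adjusted p = 1.43e-30) and ABCC9 4.95-fold (2.31 ± 0.41, adjusted p = 3.67e-07) in the authors' deposited table. For ABCC9 the ratio of the solved group means was 10.2, above the deposited fold, and its changes by knockdown under gemcitabine and by gemcitabine added up to a value that differed by -0.85 from the table of both changes. Of 38 members 35 added up within 0.1, as did 93.4% of all genes. A part of moderated fold changes in this gap was not tested. ABCA10 rose by 0.78 ± 0.25 (adjusted p = 0.00923), ABCA12 by 1.03 ± 0.31 (adjusted p = 0.00533), and the low-count ABCA4 and ABCA5, with means of 15.4 and 4.49, by 1.08 ± 0.42 and 1.36 ± 0.43 in the authors' deposited table. ABCG1 fell by 0.62 ± 0.21 (adjusted p = 0.0180) and ABCD4 by 0.50 ± 0.17 in the authors' deposited table. From the other 2 tables of the triangle, with larger SEs, the calls of ABCB1, ABCG2, ABCG1, ABCD4, ABCA12, ABCA4 and ABCA5 were lost, at adjusted p = 0.0928, 0.225, 0.165, 0.105, 0.0549, 0.279 and 0.122. By DESeq2, 0 of the 3 mitochondrial and 0 of the 4 translation genes were called in shCTRL cells, and 0 had an unadjusted p under 0.05. The median with gemcitabine was -0.22 over the 9 drug exporters, of which 2 rose and 3 fell, 0.07 over the 12 lipid transporters, of which 2 rose and 1 fell, and -0.33 over the 3 mitochondrial transporters. Of all genes 14.5% rose and 13.5% fell in this comparison.

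In shE4F1 cells the gemcitabine effect has no deposited table and was derived as shE4F1 with gemcitabine over shCTRL untreated, minus shE4F1 untreated over shCTRL untreated. Its SE counts the shared shCTRL untreated libraries and is too large. Of 36 members 1 rose, ABCC9, and 0 fell (0.925% and 0.185% of all genes, 1.11% in either direction), with 2 rising and 1 falling at an unadjusted p under 0.05. The share of all genes at the unadjusted threshold was not computed. ABCC9 was at 2.65 ± 0.57 (adjusted p = 0.000958) in shE4F1 cells, against 2.31 ± 0.41 in shCTRL cells. Its solved group means differed 10.1-fold in shE4F1 cells and 10.2-fold in shCTRL cells. ABCA13 was at 1.11 ± 0.36 (adjusted p = 0.131) in shE4F1 cells, against 2.50 ± 0.21 in shCTRL cells. ABCC3 was at -0.37 ± 0.24 in shE4F1 cells, against -0.96 ± 0.16 in shCTRL cells, and ABCC2 at -0.45 ± 0.24, against -0.66 ± 0.17. Both sets of values use the shCTRL untreated libraries.

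**Figure D4:**
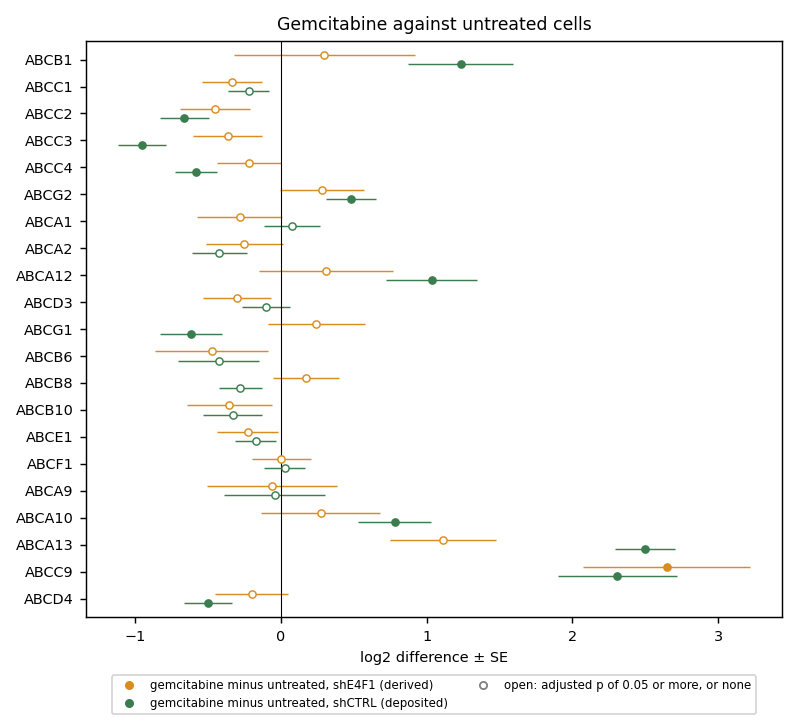
Log2 difference ± SE, gemcitabine over untreated, of named ABC genes in shE4F1 cells (orange, derived from 2 tables) and shCTRL cells (green, authors' deposited table). Filled points had an adjusted p under 0.05. ABCA13 is at 1.11 in shE4F1 and 2.50 in shCTRL cells, and ABCC9 is at 2.65 and 2.31.

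The last deposited table sets shE4F1 cells with gemcitabine against untreated shCTRL cells, which differ in both the hairpin and the drug. There 5 of 36 tested members rose and 4 fell (15.8% and 16.3% of all genes, 32.2% in either direction). ABCC2 rose by 1.45 ± 0.17, ABCA12 by 1.41 ± 0.31, ABCA9 by 1.495 ± 0.32, ABCA13 by 1.80 ± 0.24 and ABCA2 by 0.58 ± 0.19 in the authors' deposited table. ABCB10 fell by 1.21 ± 0.21, to 0.431 times the untreated shCTRL level, in the authors' deposited table. ABCA10, ABCG1 and ABCD4 were the other 3 that fell. ABCC3 was at 0.06 ± 0.17 and ABCC9 at 0.54 ± 0.45 in the authors' deposited table, neither called. This table shares libraries with each of the tables above.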

How the data were processed

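Polyadenylated RNA of 12 libraries was read as single-end reads of 50 bases from a stranded mRNA kit, per the labels. The submitters' processing notes name build GRCh38.p7 and, with no roles, R 3.4.0, DESeq2 1.14.1, HTSeq 0.9.0, Bowtie2 2.2.9 and TopHat2 2.1.1 beside FastQC and bcl2fastq. For filters, the model design, the annotation release and the strand setting of counting an answer is not given in the sources used here. Per the file headers, each deposited table of the authors holds a signal (normalized counts averaged over both groups), the log2 fold change and its SE, a Wald score, a p-value and an adjusted p-value, all from DESeq2. A table of raw counts was deposited too. Its 12 columns match no label and were not used, so no value per library, depth or spread was computed.

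The 4 deposited comparisons were used as they are, with missing adjusted p-values left missing. A further 2 were derived by subtracting log2 fold changes: gemcitabine over untreated in shE4F1 cells, and the knockdown effect under gemcitabine minus that untreated. SEs came from summed variances, with a two-sided normal test and Benjamini-Hochberg adjustment over all genes (Python 3.11.15, numpy 2.4.6, pandas 2.3.3, scipy 1.17.1, matplotlib 3.10.9). The derived tests were run on simulated data with independent noise of the deposited SEs. Such data cannot show the effect of libraries shared between tables. Group means were solved from the deposited means of the 4 tables on 1 common scale, an alternative added after seeing the data. Gene positions and exon lengths are those of GENCODE on GRCh38, and promoters are from RefSeq.

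Named with values were members called with a log2 fold change of at least 1 in size in any table or called in the interaction, and 11 fixed genes of drug efflux, sterol, mitochondrial, peroxisomal and translation function. Several members outside this rule, among them ABCC4, ABCD2, ABCD4 and ABCF3, were also given with values. The 3 symbols left out are not reported here. Members, gene lists and rules were chosen with earlier results of these data known. Alternatives were a mean of at least 50, adjustment over all p-values, centring on the median, adjusted p under 0.01, and the other 2 tables of a triangle.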

Additional observations from a re-analysis of the deposited data

Results flagged for a closer look

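The knockdown effects on ABCA13 and ABCC3 differed between the drug conditions by a test of the difference itself. For ABCA13 the effect of shE4F1 under gemcitabine minus that in untreated cells was -1.41 ± 0.31 (log2, adjusted p = 0.000546, normal test over all genes on values derived from 2 of the authors' deposited tables), with a fall of 0.72 ± 0.14 under gemcitabine and a rise of 0.68 ± 0.28 untreated. The ABCA13 change under gemcitabine was -0.70 ± 0.32 and no longer called when taken from the other 2 tables (adjusted p = 0.115). That SE is too large because these tables share libraries. For ABCC3 it was 0.63 ± 0.20 (adjusted p = 0.0348), with rises of 1.06 ± 0.12 under gemcitabine and 0.42 ± 0.16 untreated, and the call was lost when each table was centred on its median (0.55, adjusted p = 0.0861). The ABCA13 mean normalized counts were 366 and 84.8 in these tables, with 9090 and 12011 for ABCC3.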

How the results depend on the processing

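Of 50 counts of members recomputed under the alternatives, 40 stayed within 1.5 times. Taken from the other 2 tables of the triangle, with larger SEs by construction, 4 members rose and 5 fell with shE4F1 under gemcitabine, against 11 and 8, and with gemcitabine in shCTRL cells 3 rose and 3 fell, against 8 and 5. The share of all genes called in this way was not computed, so the drop cannot be read as particular to these members. Gemcitabine in shCTRL cells gave 5 rising among genes with a mean of at least 50 and 3 falling at an adjusted p under 0.01. After centring, 8 rose with both changes, against 5. The count of members with a higher knockdown effect under gemcitabine, 1, became 2 with a mean of at least 50, 0 after centring and 0 at an adjusted p under 0.01. Signs turned for ABCE1 in untreated knockdown (0.0054), ABCA9 with gemcitabine in shCTRL cells (0.018) and ABCA9 in the interaction (-0.054) after centring, and for ABCA5 in knockdown under gemcitabine (0.12) and ABCC9 with both changes (-0.32) from the other 2 tables. None of these was called in either form, and the cause was not tested. Among the named genes, calls were lost for 10 values from the other 2 tables, 9 at an adjusted p under 0.01 and 1 after centring, and gained for 3 with a mean of at least 50 and 2 after centring. Adjusting over all p-values changed no call of the 82 values with one. Tests on counts, and leaving out libraries, were not run. No paired analysis was possible because the columns of the count table match no labelled sample.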
